A study of Rattus norvegicus with 6 samples.

Results

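The genes described here are 10 potassium channel genes of the heart that take part in repolarization, namely Kcnd2, Kcnd3, Kcnip2, Kcna5, Kcnq1, Kcnh2, Kcnj2, Kcnj3, Kcnj11 and Kcnk3. They were chosen by name, for their function, with earlier results of these data known. All 10 were found among the 30452 entries of the expression table. The data came from RNA sequencing of myocardial tissue of male wild-type rats. The sham group held 3 samples and the MI/RI group (myocardial ischemia/reperfusion injury) held 3. Ischemia was caused by tying off the LAD coronary artery for 30 min, and reperfusion for 6 h followed before the heart was taken. The sample titles carry the same times for the sham rats, and the protocol given for all 6 rats (anesthesia, ventilation and left thoracotomy) does not describe the sham surgery separately. Total RNA was sequenced from stranded libraries, and the sources used here do not say which region of the heart, at risk or remote, was taken.

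Each heartbeat ends when potassium ions leave the cardiomyocyte and return its membrane to rest. The transient outward current, carried by Kv4 channels with the accessory protein KChIP2, shapes the early phase and is a main repolarizing current in rodents. Delayed rectifiers of the Kv1.5, KvLQT1 and ERG kind act later, inward rectifiers of the Kir family set the resting potential and respond to ATP or to G proteins, and two-pore channels such as TASK-1 carry background current.

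Promoter sequences are shown for the genes of the transient outward current, since their transcripts moved in different directions in the same hearts. Each run is the 250 bases before the annotated start, from RefSeq on the GRCr8 assembly and written along the gene's strand. Capitals mark CACCC, read on either strand (CACCC or GGGTG), the core of the elements bound by Kruppel-like factors such as Klf15, which is known as a regulator of Kcnip2. Kcnip2 lies on the minus strand (chr1:254613899-254614148), while Kcnd2 (chr4:50742235-50742484) and Kcnd3 (chr2:195626066-195626315) lie on the plus strand.
Kcnip2: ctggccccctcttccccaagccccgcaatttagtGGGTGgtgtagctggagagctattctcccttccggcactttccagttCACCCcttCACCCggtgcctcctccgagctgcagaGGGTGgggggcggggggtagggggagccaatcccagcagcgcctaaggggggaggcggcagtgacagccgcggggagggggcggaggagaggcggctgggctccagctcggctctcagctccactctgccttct
Kcnd2: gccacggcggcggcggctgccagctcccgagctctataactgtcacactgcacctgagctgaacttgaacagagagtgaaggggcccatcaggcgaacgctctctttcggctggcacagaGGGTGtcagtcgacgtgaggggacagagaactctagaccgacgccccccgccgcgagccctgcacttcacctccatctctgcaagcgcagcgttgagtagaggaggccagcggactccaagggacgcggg
Kcnd3: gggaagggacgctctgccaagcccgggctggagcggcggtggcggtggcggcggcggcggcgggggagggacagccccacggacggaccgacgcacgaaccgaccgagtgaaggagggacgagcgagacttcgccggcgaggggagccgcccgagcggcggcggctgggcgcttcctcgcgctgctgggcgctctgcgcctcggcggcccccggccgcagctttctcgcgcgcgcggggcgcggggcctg
The Kcnip2 window held 4 matches, the Kcnd2 window 1 and the Kcnd3 window 0. The windows of Kcna5 and Kcnj2, whose transcripts did not pass the test below, held 1 match each. Of 33469 rat promoters of this length, 49.2% held at least 1 match, so the motif is common. How many promoters held 4 was not counted, and a link between the matches and the changes was not tested. The GC content was 68% for Kcnip2, 64% for Kcnd2 and 79.6% for Kcnd3.

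Expression was given as FPKM, the fragments of a gene scaled by its length and by the size of the library, so that levels of different genes can be set side by side. The steps between the values gave back whole fragments and library divisors of 42221073 to 49848438 fragments in the sham group and 36848184 to 39480833 in the MI/RI group. The 13 mitochondrially encoded mRNAs held 80.1% to 86.2% of summed FPKM in the sham group and 61.8% to 71.5% in the MI/RI group. The FPKM of all other transcripts share what remains, and the part of this in the changes below was not tested beyond the rescaling without these mRNAs. Of 9 cardiomyocyte markers, all above 0 in every library, 8 rose, and their summed FPKM was 3679 to 12000 in the sham group and 25113 to 36607 in the MI/RI group. Of the other marker lists, 2 of 7 fibroblast genes and 3 of 5 tested neutrophil and monocyte genes rose. Ccr2, 1 of these 5, fell. Of 7 endothelial genes 0 passed the test, while 1 was higher and 1 lower without overlap between the groups. Of the nerve and glia genes 1 of 3 tested rose, Tubb3, from a mean of 0.143 to 1.03 FPKM (limma adjusted p = 0.0053), and Snap25 was listed at 0 in every library. Over all 10942 genes tested, 77.6% of the changed genes were higher in the MI/RI group, and this share was 87.3% after rescaling each library to the same sum, 56.5% on median-centred values, 48.0% with quantile normalization, 21.7% without the mitochondrial mRNAs and 0.37% after centring on the cardiomyocyte markers. The first replicate of each group stood apart for several of the channel genes. In the MI/RI group replicate 1 was the highest of the 3 samples for 7 of the 10 genes, and sham replicate 1 was the highest sham sample for 5.

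After MI/RI, Kcnip2, Kcnq1, Kcnh2 and Kcnj11 rose and Kcnd3 fell, while Kcna5, Kcnj2, Kcnj3 and Kcnk3 did not pass the test. These calls are on the FPKM scale, and those of Kcnip2 and Kcnh2 were lost without any 1 of the sham samples. When the libraries were centred on the cardiomyocyte markers, the log2 fold changes of all 4 genes that rose were below 0. Of these, only Kcnip2 passed the test as lower. Kcnd2 lay under the filter on low values and is described by its counts. Thus 4 of 9 tested genes were higher, beside 25.5% of all genes tested, and 1 of 9 was lower, beside 7.36%. With the replicate number as a block, 2 of 9 were lower, Kcnk3 being added, beside 8.18%, and 4 of 9 were higher, beside 28.2%. The median log2 fold change of the 9 genes was 1.06, against 0.29 over all genes tested. Without any overlap between the groups, 5 of the 10 genes were higher and 2 lower, beside 37.2% and 13% of the genes tested. Kcnd2 is among the 5 but was not tested and is not in these shares. The other 4 were Kcnip2, Kcnq1, Kcnh2 and Kcnj11. The groups were compared with limma on log2(FPKM + 0.1), with Benjamini-Hochberg adjustment over all genes tested and a threshold of 0.05. Fold changes are on that scale and understate the change of low genes, and the p-values measure the spread between these samples only.

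**Figure D1:**
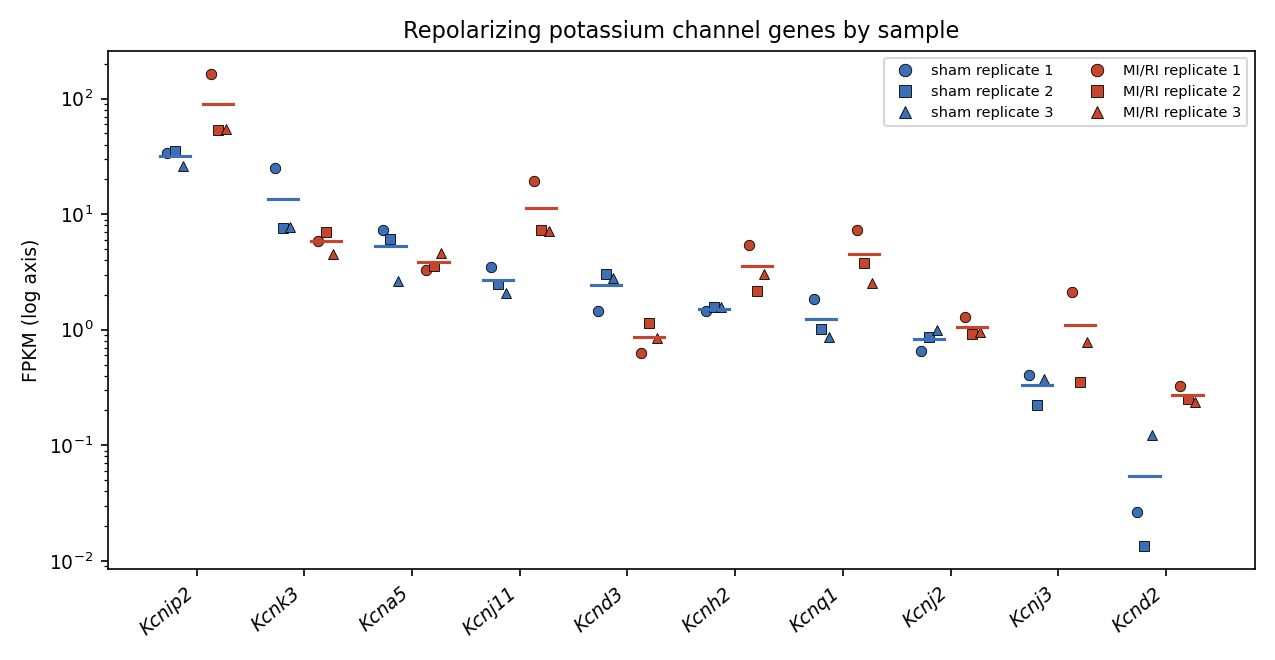
FPKM on a log axis of the 10 potassium channel genes in each of the 3 sham and 3 MI/RI samples, with replicates told apart by symbol and the group means as bars. Kcnip2 lay above every other gene, at 26.0 to 35.6 FPKM in the sham group and 53.4 to 163 in the MI/RI group, and Kcnd3 was lower in all 3 MI/RI samples.

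The transient outward current genes divided between both directions. Kcnip2 (ENSRNOG00000018018) encodes KChIP2, the calcium-binding subunit that brings Kv4 channels to the membrane. Its FPKM was 34.0, 35.6 and 26.0 in the sham samples (replicates 1, 2 and 3, the order used throughout) and 163, 53.4 and 54.2 in the MI/RI samples. All MI/RI samples lay above all sham samples, and MI/RI replicate 1 was 3.02-fold above the mean of the other MI/RI samples. The log2 fold change was 1.30 ± 0.41 (SE, limma adjusted p = 0.035), a 2.46-fold rise. Without MI/RI replicate 1 it was 0.77 (limma adjusted p = 0.045), and without both first replicates it was 0.82 (limma adjusted p = 0.013). After quantile normalization the change was 0.32 (limma adjusted p = 0.50), and the rise was lost in 8 of 20 alternatives, in 1 of which, centred on the cardiomyocyte markers, it was lower (-1.05, limma adjusted p = 0.027). Among the 8 was the removal of any 1 sham sample, with adjusted p of 0.059, 0.086 and 0.108 in limma. In whole tissue, fewer cells of a type and less RNA per cell cannot be told apart, and this holds for each change below.

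Kcnd3 (ENSRNOG00000014686) encodes Kv4.3, a pore-forming subunit of the fast transient outward current. The sham samples had 1.46, 3.05 and 2.80 FPKM and the MI/RI samples 0.633, 1.13 and 0.844. The lowest sham sample, replicate 1, was still above the highest MI/RI sample. Kcnd3 fell by 1.35 on the log2 scale (SE 0.33, 95% interval -2.09 to -0.61, limma adjusted p = 0.014), which was 2.55-fold lower. Only 3.08% of the genes tested had a lower log2 fold change. Its direction was the same under all 19 alternatives, and the adjusted p rose to 0.059 without sham replicate 2 and to 0.060 without sham replicate 3. These libraries held 159 to 1037 fragments of Kcnd3.

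Kcnd2 (ENSRNOG00000067416) encodes Kv4.2, the other pore-forming subunit of that current and in rodents the better known one in ventricle. It was close to the limit of detection in the sham group, with 5, 3 and 26 fragments, and had 54, 44 and 39 fragments in the MI/RI group. In FPKM these were 0.0266, 0.0135 and 0.122 against 0.329, 0.250 and 0.235, with no overlap. Pooled over each group, 34 fragments stood against 137, a ratio of rates of 4.97 with a 95% exact interval of 3.39 to 7.46 that covers counting error only and not the differences between rats. Sham replicate 3 held 26 of the 34 sham fragments, and without it the ratio was 13.9 (95% exact interval 6.85 to 32.8). In the fit without a filter its log2 fold change was 1.33 (limma adjusted p = 0.036), where 11.4% of 19226 genes were higher and 3.32% lower. In that fit Kcnip2 (limma adjusted p = 0.091) and Kcnh2 (limma adjusted p = 0.079) did not pass the test. Kv4.2 and Kv4.3 transcripts thus moved in opposite directions on the FPKM scale, though Kcnd2 stayed below Kcnd3 in every library.

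Among the delayed rectifiers, Kcnq1 and Kcnh2 rose on the FPKM scale and Kcna5 did not pass the test. Kcnq1 (ENSRNOG00000020532) encodes KvLQT1, the pore of the slow delayed rectifier. Its FPKM was 1.83, 1.01 and 0.870 in the sham group and 7.26, 3.77 and 2.55 in the MI/RI group. The groups did not overlap, and the first replicate was the highest in each. This was a log2 fold change of 1.73 ± 0.39 (SE, 95% interval 0.85 to 2.60, limma adjusted p = 0.010), a 3.31-fold rise. Without both first replicates it was 1.62 (limma adjusted p = 0.0041).

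Kcnh2 (ENSRNOG00000009872) encodes ERG, the pore of the rapid delayed rectifier. The sham samples lay close together at 1.45, 1.56 and 1.56 FPKM, and the MI/RI samples had 5.43, 2.15 and 3.05. Every MI/RI sample was above every sham sample, with replicate 1 at 2.09-fold the mean of the others. The log2 fold change was 1.06 ± 0.32 (SE, limma adjusted p = 0.028). This call was lost in 10 of 19 alternatives, in 1 of which, centred on the cardiomyocyte markers, it was at -1.28 (limma adjusted p = 0.059). Others were the fits without any 1 of the sham samples or MI/RI replicate 3 (limma adjusted p of 0.051 to 0.076). The call was also lost without MI/RI replicate 1, where the change was 0.71 (limma adjusted p = 0.065), and without the mitochondrial mRNAs, where it was 0.31 (limma adjusted p = 0.49).

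Kcna5 (ENSRNOG00000019719) encodes Kv1.5, the ultrarapid delayed rectifier, best known from atrial myocytes. Its FPKM was 7.28, 6.14 and 2.62 in the sham group and 3.31, 3.55 and 4.61 in the MI/RI group. The groups overlapped, with sham replicate 3 the lowest of all 6. Kcna5 had a log2 fold change of -0.37 (95% interval -1.16 to 0.43, limma adjusted p = 0.46). Without the mitochondrial mRNAs it was -1.13 (limma adjusted p = 0.019).

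Of the inward rectifiers, Kcnj11 had the highest log2 fold change of the 9 genes. Kcnj11 (ENSRNOG00000021128) encodes Kir6.2, the pore of the ATP-sensitive channel, which opens when cellular ATP falls. Its FPKM was 3.50, 2.51 and 2.06 in the sham group and 19.4, 7.25 and 7.11 in the MI/RI group. No values overlapped, and MI/RI replicate 1 was 2.71-fold above the mean of the other MI/RI samples. Its log2 fold change was 1.89 ± 0.39 (SE, 95% interval 1.03 to 2.75, limma adjusted p = 0.0073), a 3.71-fold rise, and 4.41% of the genes tested had a higher one. It passed the test in 19 of 20 alternatives and was 1.61 without both first replicates (limma adjusted p = 0.0012). Centred on the cardiomyocyte markers it was -0.45 (limma adjusted p = 0.45).

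Kcnj2 (ENSRNOG00000064933) encodes Kir2.1, the main subunit of the classical inward rectifier that holds the resting potential. It had 0.657, 0.865 and 0.989 FPKM in the sham group and 1.29, 0.916 and 0.952 in the MI/RI group, with overlapping values. Kcnj2 had a log2 fold change of 0.30 (95% interval -0.34 to 0.94, limma adjusted p = 0.45), close to the median of all genes. The sign was negative without the mitochondrial mRNAs and after centring on the cardiomyocyte markers.

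Kcnj3 (ENSRNOG00000005369) encodes GIRK1, a subunit of the acetylcholine-activated channel that slows the atrium and the sinus node. Its FPKM was 0.406, 0.222 and 0.375 in the sham group and 2.14, 0.350 and 0.780 in the MI/RI group. MI/RI replicate 1 was 3.78-fold above the mean of the other MI/RI samples, and MI/RI replicate 2 lay within the sham range. The log2 fold change of 1.17 (95% interval -0.06 to 2.40, limma adjusted p = 0.13) did not pass the test, and it was 1.72 (limma adjusted p = 0.031) without MI/RI replicate 2. The summed FPKM of 5 atrial myocyte markers also differed within the groups, at 72.1, 11.9 and 8.22 in the sham and 84.5, 18.3 and 147 in the MI/RI samples, and 1 of 4 tested rose. Among them, Nppa was at 65.3 and 78.4 in the first replicates and 5.71 to 9.81 elsewhere, and Myl7 was at 133 in MI/RI replicate 3 and at 0.905 to 3.57 in the others. The part of atrial tissue in these values was not tested.

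Kcnk3 (ENSRNOG00000009790) encodes TASK-1, a two-pore channel sensitive to acid, found in atrial myocytes and in arterial smooth muscle. Its FPKM was 25.3, 7.57 and 7.75 in the sham group and 5.88, 7.08 and 4.50 in the MI/RI group. All MI/RI samples lay below all sham samples, but sham replicate 1 was 3.30-fold above the mean of the other sham samples. Kcnk3 had a log2 fold change of -0.98 (95% interval -1.95 to -0.02, limma adjusted p = 0.11), and it was -0.41 without sham replicate 1. With the replicate number as a block the adjusted p from limma was 0.044. It was also lower past the threshold after quantile normalization (-1.48, limma adjusted p = 0.045) and without the mitochondrial mRNAs (-1.76, limma adjusted p = 0.0024). The 7 smooth muscle and pericyte markers summed to 279, 131 and 86.7 FPKM in the sham and 144, 277 and 337 in the MI/RI samples, with 1 of 7 higher and 1 lower. Their part in the Kcnk3 values was not tested.

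**Figure D2:**
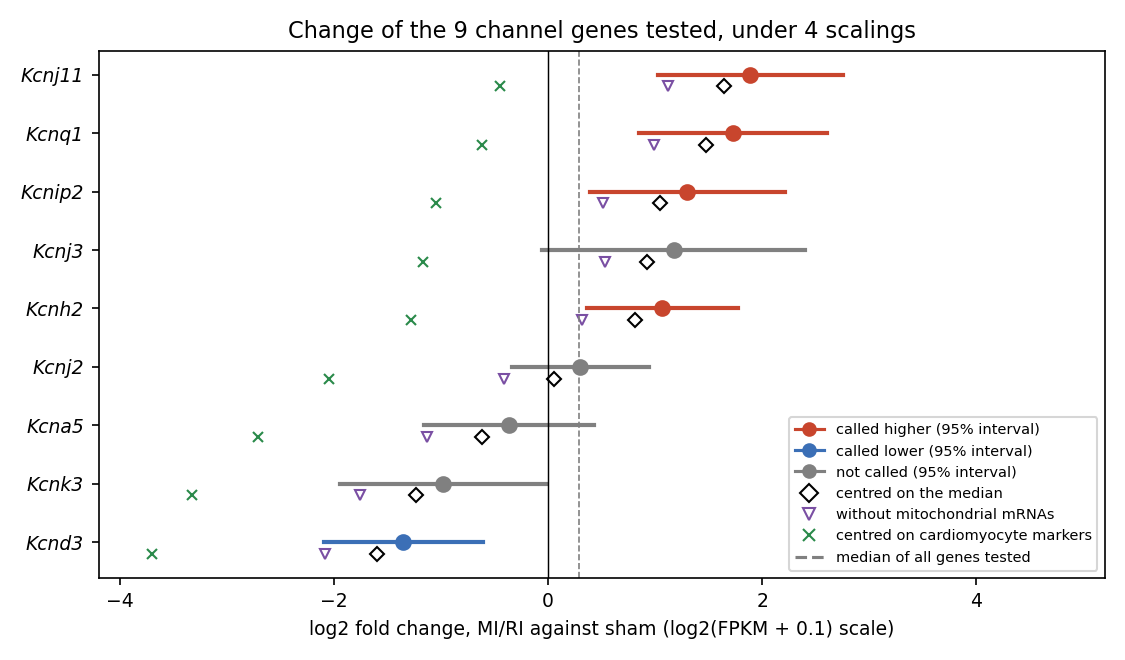
Log2 fold change (MI/RI minus sham) of the 9 tested genes with its 95% interval from limma on deposited FPKM, beside the values under the other scalings, with the median of all genes on the FPKM scale. Kcnj11 at 1.89 and Kcnd3 at -1.35 lay at either end, and after centring on the cardiomyocyte markers every gene was below 0.

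Relative to the median of all genes, Kcnj11 was higher by 1.60 on the log2 scale, Kcnq1 by 1.44, Kcnip2 by 1.01, Kcnj3 by 0.88 and Kcnh2 by 0.77. Kcnj2 stood at 0.01, Kcna5 at -0.66, Kcnk3 at -1.28 and Kcnd3 at -1.64. With each library centred on its median, 2 of 9 genes, Kcnq1 and Kcnj11, were higher (beside 18.5% of all genes) and Kcnd3 was lower (beside 14.2%). After quantile normalization Kcnq1, Kcnh2 and Kcnj11 were higher (beside 13.2%) and Kcnd3 and Kcnk3 lower (beside 14.2%). Rescaling without the mitochondrial mRNAs shifted the median of all genes to -0.46. It gave Kcnq1 and Kcnj11 as higher (beside 7.25%) and Kcnd3, Kcna5 and Kcnk3 as lower (beside 26.1%).

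The transcript levels were ordered within each group. In sham hearts Kcnip2 was the most abundant (31.9 ± 5.14 FPKM, SD, n = 3), followed by Kcnk3 (13.5), Kcna5 (5.35), Kcnj11 (2.69), Kcnd3 (2.44), Kcnh2 (1.53), Kcnq1 (1.24), Kcnj2 (0.837), Kcnj3 (0.334) and Kcnd2 (0.0539). From Kcna5 down to Kcnj2, the ranges of neighbours over the 3 samples overlapped, so their order is not fixed by these samples. In MI/RI hearts Kcnip2 was again first (90.1 ± 62.8 FPKM, SD, n = 3), then Kcnj11 (11.3), Kcnk3 (5.82), Kcnq1 (4.53), Kcna5 (3.82), Kcnh2 (3.54), Kcnj3 (1.09), Kcnj2 (1.05), Kcnd3 (0.870) and Kcnd2 (0.271). Here the ranges of neighbours were separate between Kcnip2 and Kcnj11, Kcnj11 and Kcnk3, Kcnh2 and Kcnj3, and Kcnd3 and Kcnd2. Those of Kcnj11 and Kcnk3 were barely apart, with the lowest Kcnj11 sample at 7.11 FPKM and the highest Kcnk3 sample at 7.08. Of the summed FPKM of the 10 genes, Kcnip2 held 44.8% to 60.8% in the sham and 66.9% to 78.1% in the MI/RI samples. The Kcnj11 share was 4.29% to 4.61% in the sham and 9.02% to 9.33% in the MI/RI samples.

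A ratio of 2 transcripts within a sample depends less on how the library was scaled, apart from the pseudocount of 0.1 and from quantile normalization, and 11 ratios between channel subunits and their partners were compared. The groups did not overlap in 7 of them, 5 being higher and 2 lower after MI/RI. For the FPKM of single genes tested these shares were 37.2% and 13%, and the share over ratios of other gene pairs was not taken. Some genes, such as Kcnd3, stand in more than 1 ratio, so the ratios are not independent. Each of these 7 had the smallest p that an exact permutation test of 3 against 3 rats can give, 0.1 (two-sided, 0.157 after Benjamini-Hochberg adjustment over the 11), so the test cannot pass the threshold at this size. The log2 ratio of Kcnd2 to Kcnd3 was -3.62, -4.80 and -3.71 in the sham and -0.77, -1.82 and -1.49 in the MI/RI samples, a rise of the mean by 2.68. Sham Kcnd2 lay around the pseudocount, so the size of this rise depended on it, at 1.12 with a pseudocount of 1 and 3.97 with 0.01. The ratio of Kcnip2 to Kcnd3 went from a mean of 3.71 to 6.36, a difference of 2.65 that was 1.93 without MI/RI replicate 1 and 1.79 after quantile normalization. The ratio of Kcnip2 to Kcnd2 was 7.75 and 7.72 (exact permutation p = 1), and its sign depended on the pseudocount and on single samples.

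The transcripts for the pores of ATP-sensitive channels, Kcnj11 and Kcnj8, had log2 fold changes of opposite sign on the FPKM scale. Kcnj8 encodes Kir6.1, the pore of the vascular form, and Abcc9 the sulfonylurea receptor SUR2. Kcnj8 had 11.7, 16.5 and 16.9 FPKM in the sham and 10.8, 7.54 and 5.57 in the MI/RI samples (log2 fold change -0.94, limma adjusted p = 0.031), and its call was lost without sham replicate 2 or 3 or MI/RI replicate 2 or 3 (adjusted p up to 0.11). The log2 ratio of Kcnj11 to Kcnj8 went from a mean of -2.45 ± 0.66 to 0.38 ± 0.45 (SD, n = 3 each), a 7.12-fold higher ratio. The part of cell types in this ratio was not tested. Against Abcc9, which did not pass the test (log2 fold change 0.18, 95% interval -0.43 to 0.79), the Kcnj11 ratio rose by 1.71.

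Among the other inward rectifiers, the log2 ratio of Kcnj2 to Kcnj12, which encodes Kir2.2, went from 1.62 to -0.79. Kcnj12 itself had 0.328, 0.311 and 0.0557 FPKM in the sham and 2.65, 1.19 and 2.04 in the MI/RI samples. The ratio of Kcnj3 to Kcnj5, which encodes the partner subunit GIRK4, went from -1.34 to -0.09, and Kcnj5 had a log2 fold change of -0.08 (limma adjusted p = 0.89). The Kcnj2 to Kcnj12 difference was -1.08 with a pseudocount of 1, and the Kcnj3 to Kcnj5 difference of 1.25 was then 0.59. The ratio of Kcnk3 to Kcnj2 went from 3.64 to 2.35, a difference of -1.28 that was -0.57 without sham replicate 1. Its groups were barely apart, with the lowest sham sample at 2.85 and the highest MI/RI sample at 2.82. The ratios of Kcna5 to Kcnd3, Kcnq1 to Kcne1 and Kcnh2 to Kcnq1 overlapped between the groups, with exact permutation p of 0.3, 0.4 and 0.2 before adjustment. Kcne1, which encodes the small subunit minK, had 1 to 26 fragments per library, so that ratio is imprecise.

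**Figure D3:**
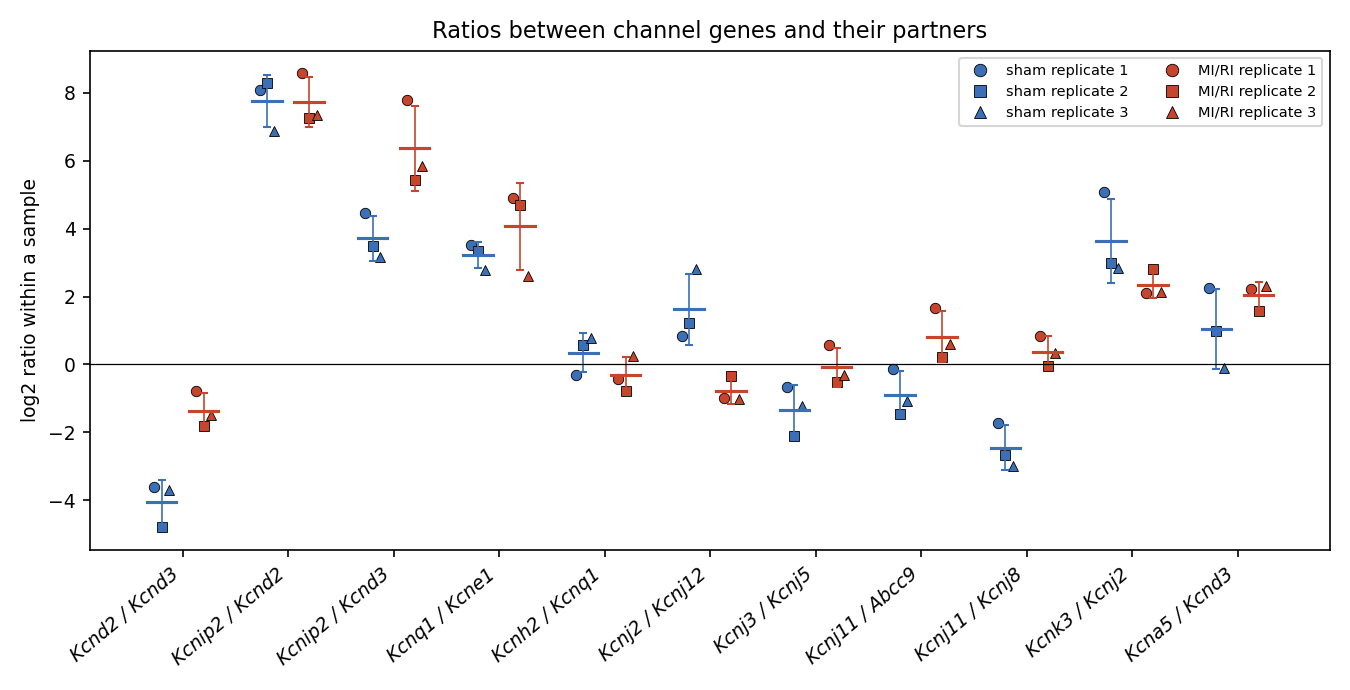
Log2 ratio of 2 transcripts within each sample for the 11 pairs, 3 sham and 3 MI/RI samples with the group means ± SD as bars. The ratio of Kcnj11 to Kcnj8 rose from a mean of -2.45 to 0.38 and that of Kcnd2 to Kcnd3 from -4.04 to -1.36, while Kcnip2 to Kcnd2 overlapped.

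Since the cardiomyocyte markers were higher in the MI/RI libraries, each gene was also set against the mean log2 value of the 9 markers in its own sample. The marker mean itself was 2.34 higher in the MI/RI group, more than the rise of any of the 10 genes. All 10 therefore had a lower mean on this scale in the MI/RI group, and for 5 of them the groups did not overlap. These were Kcnd3 (-3.70), Kcnk3 (-3.33), Kcna5 (-2.71), Kcnj2 (-2.04) and Kcnh2 (-1.28), as log2 differences between the group means. Kcnk3, for which sham replicate 1 stood apart in FPKM, was at -4.43, -4.96 and -4.54 in the sham and at -8.37, -7.45 and -8.09 in the MI/RI samples. Kcnj11 (-0.45) and Kcnq1 (-0.62) had the smallest differences, and their groups overlapped. For the 5 without overlap the exact permutation p was 0.1 (two-sided, 0.2 after adjustment over the 10), the smallest this design allows. On this centring limma gave 0 of the 9 tested genes as higher and 5 as lower, Kcnd3, Kcnip2, Kcna5, Kcnj2 and Kcnk3. Beside this, 0.311% of all genes tested were higher and 83.7% lower, so a lower value is shared with most of the transcriptome. The share of all genes without overlap was not taken on this scale.

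**Figure D4:**
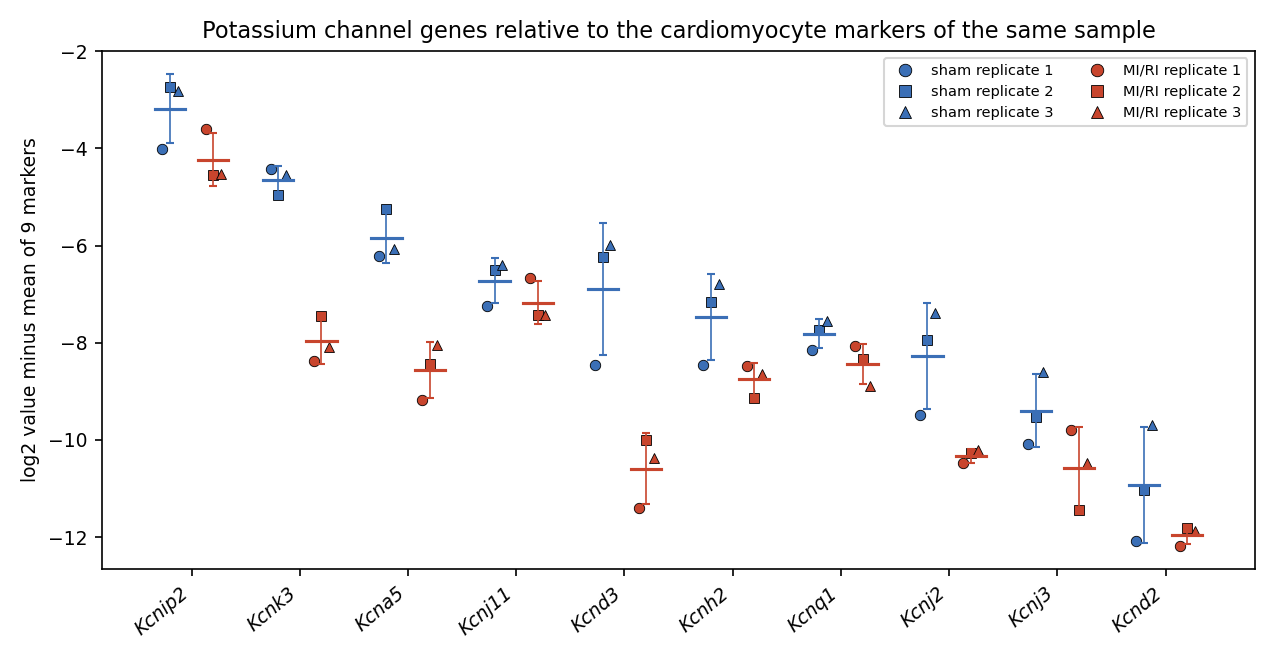
Log2 level of each of the 10 potassium channel genes minus the mean log2 level of 9 cardiomyocyte markers in the same sample, for 3 sham and 3 MI/RI samples with the group means ± SD as bars. Kcnd3 moved by -3.70 and Kcnk3 by -3.33 with separate groups, while Kcnj11 and Kcnq1 overlapped.

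The other genes of these channel families were read from 7 lists, with 77 of 82 genes in the table and 27 tested. On the FPKM scale 10 of the 27 rose, 1 fell and 16 did not pass the test, beside 25.5% and 7.36% of all genes. Their median log2 fold change was 0.26, against 0.29 over all genes. The other 50 genes lay under the filter, and 6 of the 77 were listed at 0 in every library. Among the voltage-gated alpha subunits 1 of 3 rose, namely Kcng2, which encodes a silent subunit (log2 fold change 2.41, limma adjusted p = 0.0045). Among the auxiliary subunits 1 of 3 rose, Abcc8, which encodes the sulfonylurea receptor SUR1 (1.55, limma adjusted p = 0.0052). Its FPKM was 1.08, 1.45 and 0.813 in the sham and 4.58, 2.74 and 3.09 in the MI/RI samples.

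Of 3 inward rectifiers tested, Kcnj12 rose (2.71, limma adjusted p = 0.0043), Kcnj8 fell and Kcnj5 did not pass. Of 2 two-pore channels, Kcnk2, which encodes the stretch-sensitive channel TREK-1, rose by 2.60 on the log2 scale (limma adjusted p = 0.0040). It had 0.812, 0.161 and 0.236 FPKM in the sham and 2.48, 2.24 and 2.87 in the MI/RI samples. TREK-1 and TASK-1 transcripts had log2 fold changes of opposite sign, but that of TASK-1 (Kcnk3) did not pass the test. Of 4 calcium-activated channel genes, Kcnn3, which encodes a small-conductance channel, rose (1.41, limma adjusted p = 0.042). Its call was lost without any 1 sample other than sham replicate 2 (adjusted p up to 0.14). The pacemaker channel gene Hcn2 had 1.55, 1.70 and 0.760 FPKM in the sham and 41.6, 4.72 and 5.49 in the MI/RI samples (2.93, limma adjusted p = 0.013). Here too MI/RI replicate 1 was far above the others, and the change was 2.06 without both first replicates.

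Of 11 anchors and regulators tested, 4 rose and 0 fell. Cav3, which encodes the caveolin of muscle, had a log2 fold change of 2.29 (limma adjusted p = 0.0037) and Prkaca, which encodes a catalytic subunit of protein kinase A, 1.81 (limma adjusted p = 0.0054). Gnai2, an inhibitory G protein alpha subunit, had 0.92 (limma adjusted p = 0.015), which turned negative after quantile normalization. Nedd4l, a ubiquitin ligase of ion channels, had 0.75 with an adjusted p in limma of 0.04999. The transcription factors Klf15 (0.22, limma adjusted p = 0.54) and Irx4 (0.05, limma adjusted p = 0.93), both known regulators of transient outward current genes, did not pass the test. Irx3 (-0.23, limma adjusted p = 0.75) did not pass either. Irx5 lay under the filter and was not tested, with overlapping values and means of 0.47 FPKM in the sham and 0.22 in the MI/RI group. The call of Nedd4l was lost without any 1 of the 6 samples (adjusted p of 0.065 to 0.16 in limma), and that of Gnai2 without sham replicate 3 (limma adjusted p = 0.070). Apart from Kcng2, Kcnj12, Kcnk2 and Hcn2, the genes that rose were below 0 after centring on the cardiomyocyte markers.

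**Figure D5:**
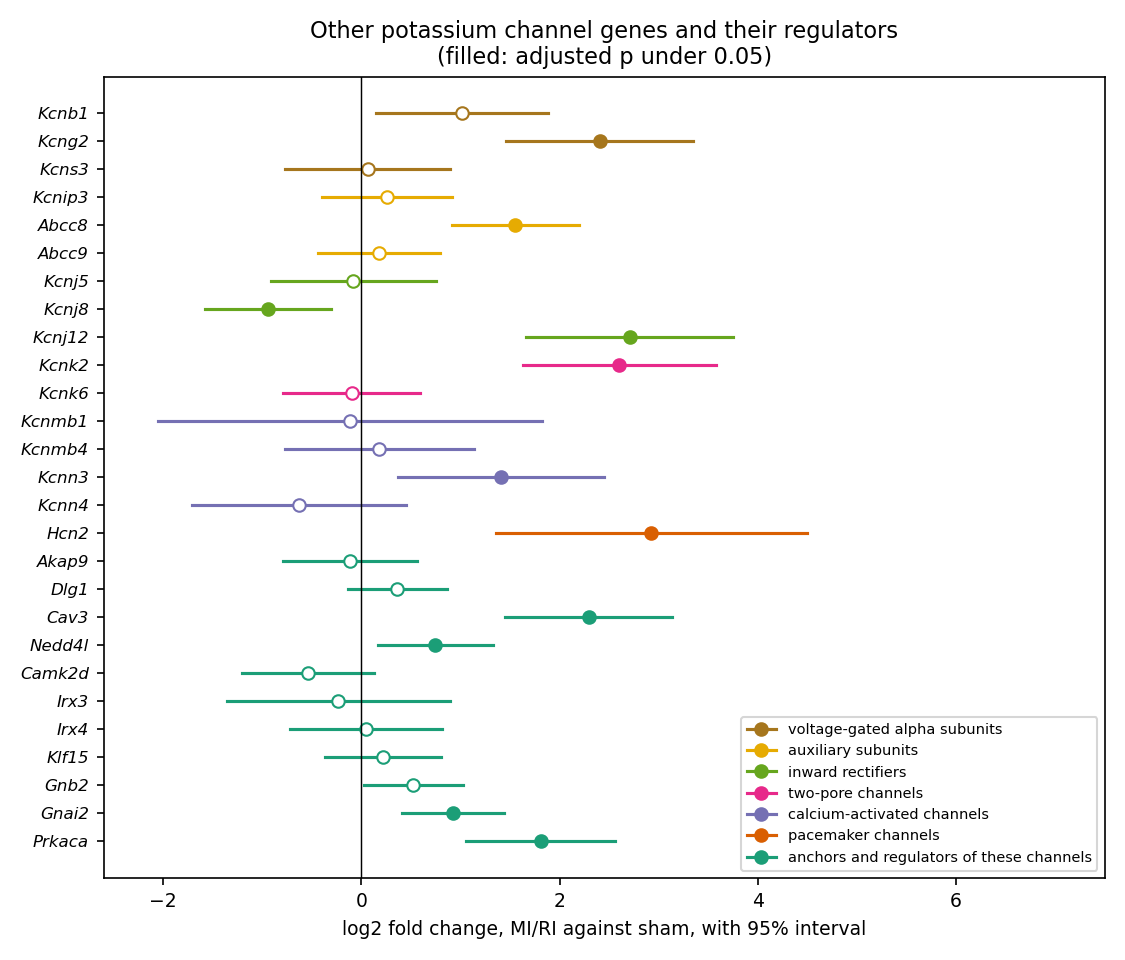
Log2 fold change (MI/RI minus sham) of the 27 tested genes of the related lists, grouped by list, with the 95% interval from limma on deposited FPKM. Hcn2, Kcnj12 and Kcnk2 had the highest values at 2.93, 2.71 and 2.60, and Kcnj8 at -0.94 was the 1 gene past the threshold on the lower side.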

How the data were processed

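RNA was sequenced from the myocardium of 3 sham and 3 MI/RI rats. The authors deposited FPKM values per gene and sample in 1 table. Per the submitters' processing notes STAR and HTSeq were used, while versions, genome build, annotation and the total behind the FPKM are not given in the sources used here, so genes with close paralogs are uncertain. Groups came from the sample labels, and entries with the same symbol were summed (28293 genes). Sham and MI/RI were compared using limma 3.58.1 (R 4.3.3, lmFit and eBayes with trend, no replicate block). The fit used log2(FPKM + 0.1) of 10942 genes whose mean FPKM reached 0.5, with Benjamini-Hochberg adjustment and a threshold of 0.05. The fit was run on simulated data with independent noise for each gene and no shift shared by a library, which does not test the scaling. Two-sided exact permutation tests were used for single values (Python 3.11.15), and exact intervals of fragment counts came from SciPy 1.17.1. Whole fragments were recovered for 10966 of 10981 entries above the filter (within 2% of a fragment), and the member levels rest on 40 to 15195 fragments per library except for Kcnd2. Of 10 cardiomyocyte markers listed, 9 were used, and Pln was not analysed here.

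The labels give replicate numbers, and the deviations of same-numbered sham and MI/RI samples from their group means correlated at 0.20, 0.117 and 0.118. Each is over 0.1, so the numbers were treated as pairs in a second fit, although the pair of sham replicate 3 and MI/RI replicate 2 reached 0.120. The pairing comes from these data and the labels, not from a stated shared litter or day. The alternatives were other pseudocounts, filters, scalings, no trend, the block, the highest entry of each symbol, and leaving out each sample. Leaving out both first replicates, leaving out single samples from the pooled Kcnd2 fragments, and limma-voom on the recovered fragments were chosen after seeing the data. Genes named were the 10 channel genes, each gene of the related lists past the threshold, partner subunits in a ratio, and the 3 genes most correlated with the members that had the highest and lowest log2 fold change. Klf15, Irx3, Irx4, Irx5 and the markers Ccr2, Tubb3, Nppa, Myl7 and Snap25 were named after their values were seen. The genes and lists were chosen with earlier results of these data known. RefSeq promoters were found for 5 of the 10 genes (Kcnd2, Kcnd3, Kcnip2, Kcna5 and Kcnj2). No other samples of the study were used here.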

Additional observations from a re-analysis of the deposited data

How the results depend on the processing

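With 3 rats a group, a single sample decided several calls. Leaving out 1 sample at a time, 2 to 5 of the channel genes were higher and 0 to 1 lower. Of the related genes, 7 to 9 were higher and 0 to 2 lower. Over all genes tested these fits gave 14% to 23.4% higher and 2.82% to 8.05% lower. In limma, Kcnd3 lost its call without sham replicate 2 or sham replicate 3, and Kcnip2 lost its call without any 1 of the sham samples. Kcnh2 lost its call without any 1 of the samples but MI/RI replicate 2, and Kcnj3 gained one without that sample. With a mean FPKM of at least 5, 3784 genes were left, of which 50% were higher and 4.39% lower. Of the channel genes only Kcnip2, Kcnj11 and Kcnk3 were then tested, and Kcnd3 was not. Of these, 2 were higher, Kcnip2 and Kcnj11, and 0 lower, and 5 related genes were higher. Centred on the median, 2 channel genes were higher, and 2 related genes were lower. After quantile normalization 2 channel genes were lower. Without the mitochondrial mRNAs 2 channel genes were higher and 3 lower, and 6 related genes were higher and 3 lower. Centred on the cardiomyocyte markers 0 channel genes were higher and 5 lower, and 0 related genes were higher and 18 lower. The related genes lower were 0 without a filter and 0 after rescaling to a common sum, and 2 without both first replicates. Over all genes tested, 2790 were higher and 805 lower. Quantile normalization gave 1441 and 1559, median centring 2020 and 1554, rescaling to a common sum 3449 and 504, the filter at 5 1892 and 166, leaving out the mitochondrial mRNAs 793 and 2857, and centring on the cardiomyocyte markers 34 and 9158. Without 1 sample the counts were 1528 to 2557 and 309 to 881. With the replicate block 2 channel genes were lower, Kcnk3 being added, and Nedd4l lost its call (adjusted p = 0.055 in limma). The block changed no other call among the 9 channel genes tested and the 11 related genes past the threshold. Log2 fold changes reversed on centring on the cardiomyocyte markers for Kcnip2 (-1.05), Kcnq1 (-0.62), Kcnh2 (-1.28), Kcnj2 (-2.04), Kcnj3 (-1.17), Kcnj11 (-0.45), Abcc8 (-0.79), Kcnn3 (-0.93), Cav3 (-0.050), Nedd4l (-1.60), Gnai2 (-1.42) and Prkaca (-0.53). Kcnj2 was also reversed without the mitochondrial mRNAs (-0.42), Gnai2 after quantile normalization (-0.090) and Kcna5 without both first replicates (0.0082). The log2 ratio of Kcnip2 to Kcnd2 differed between groups by -0.46 to 0.24 without 1 sample and by 1.004 with a pseudocount of 1. Relative to the cardiomyocyte markers, Kcnd2 was at 0.18 with a pseudocount of 0.01, and Kcnq1 (0.066) and Kcnj11 (0.039) turned positive after quantile normalization. The cause of these moves was not tested. Depth limits Kcnd2 and Kcne1, which had 1 to 54 fragments per library. It also limits the sham values of some related genes that rose. In the sham samples Kcnj12 had 57, 64 and 11 fragments, Kcnn3 14, 57 and 23, and Kcnk2 115, 27 and 38.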

Other observations

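The channel genes differ in the length of their gene models, from 2036 bases for Kcnk3 to 6818 for Kcnd3, and the fold changes of all genes differed with length. The median log2 fold change was 0.53 for genes under 1000 bases, 0.52 from 1000 to 2000, 0.31 from 2000 to 4000, 0.13 from 4000 to 8000 and 0.00 above 8000 bases. Lengths were those recovered from the steps of the FPKM values. Kcnd3 (-1.35) lay below and Kcnj11 (3034 bases, 1.89) above the median of its own length class. The part of length in the changes was not tested.

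By the correlation of log2(FPKM + 0.1) over the 6 samples, the genes most like Kcnj11 were Adprs, Pdhx and Gaa, with Pearson's r of at least 0.999. Those most like Kcnd3 were ENSRNOG00000065897, Phf20l1 and Stag2, with r of at least 0.997. The 6 points share the difference between the groups and the first replicates that stood apart. Pdhx had 3.85, 2.71 and 2.04 FPKM in the sham and 24.9, 8.94 and 8.61 in the MI/RI samples. Phf20l1 had 3.53, 7.59 and 6.65 in the sham and 1.38, 2.30 and 1.83 in the MI/RI samples.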
